A study of Mus musculus with 6 samples.

Results

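The vascular endothelial growth factor (VEGF) and angiopoietin genes were examined in lungs of mice with primary blast lung injury (PBLI), the lung damage caused by a blast pressure wave itself. The 10 genes, Vegfa, Vegfb, Vegfc, Pgf, Angpt1, Angpt2, Kdr, Flt1, Flt4 and Tek, were taken by name from the 22564 rows of the mRNA table. Earlier results of these data were known when they were chosen. They are 6 ligands and 4 receptors, and each had 1 row in the table. Male C57BL/6 mice of 8 to 10 weeks were anesthetized in both groups, and only the chests of the PBLI mice met a blast of 0.5 bar peak overpressure. A piece of the right upper lobe was taken 6 h later from 12 mice, 6 per group, and tissue of 2 mice was combined in each library, which gave 3 Control and 3 PBLI libraries. Ribosomal RNA was depleted and the remaining RNA was sequenced from unsorted tissue, so a level here sums over all cells of these pieces.

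VEGF ligands act on receptor tyrosine kinases of endothelial cells. VEGFA binds the receptors encoded by Kdr, which carries most of the growth and permeability signal, and by Flt1, which binds VEGFA tightly but signals weakly and also exists as a soluble decoy. PGF and VEGFB bind the FLT1 receptor, and VEGFC binds the receptor of Flt4, which is known for lymphatic vessels. ANGPT1, made by cells around the vessel, activates the receptor encoded by Tek (TIE2) and keeps the endothelial barrier tight, whereas ANGPT2, made by endothelial cells, often opposes it. In lung, alveolar epithelial cells are a main source of VEGFA.

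The values were FPKM, fragments per unit of transcript length and of library size, which correct for gene length and can therefore be set side by side between genes. Groups were compared by limma on log2(FPKM + 0.5), a scale that understates the change of low genes. Of the 22564 rows, 14760 reached 0.5 FPKM in at least 1 library and were tested, among them all 10 VEGF and angiopoietin genes. Here "rose", "fell" and "called" mean an adjusted p under 0.05 over all 14760 genes.

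Before the results, the libraries are described. Steps between the lowest FPKM values gave relative depths of 1 to 1.15 for the Control libraries and 1.24 to 1.6 for the PBLI libraries. Greater depth lowers counting error, which is a part of the spread between libraries, mostly for low genes. All PBLI libraries were deeper than all Control libraries, so depth and group cannot be told apart. The PBLI libraries are called G3, G4 and G5 after the table's headers, and G5 stood apart, with the lowest median correlation to the other libraries (0.954, against 0.964 to 0.972 for the other 5). Summed neutrophil marker levels were 177 to 292 FPKM in the Control libraries, 2286 in G3, 1966 in G4 and 390 in G5. Summed cell cycle marker levels were 226.5 FPKM in Control 1 and 52.8 to 76.8 in the other 5 libraries. Where leaving out G5 moved a difference of the 10 genes or a list median by over 1.5 times, the value without it is also given.

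The promoters of Kdr and Flt1, the VEGFA receptors whose levels lay apart between the groups in opposite directions, are shown for their sequence context. They were taken from RefSeq on GRCm38.p6 and run 5′ to 3′ from 250 bases before to 50 bases after the start site, at chr5:75978406-75978705 (minus strand) for Kdr and at chr5:147725962-147726261 (minus strand) for Flt1. Capitals mark matches, on either strand, to any of 7 short motifs: the hypoxia response element core (ACGTG), AP-1 (TGANTCA), the antioxidant response element (TGACNNNGC), the E-box (CACGTG), the GC box (GGGCGG), the core of ETS factors (CCGGAA) and the GATA factor motif (AGATAA).
Kdr: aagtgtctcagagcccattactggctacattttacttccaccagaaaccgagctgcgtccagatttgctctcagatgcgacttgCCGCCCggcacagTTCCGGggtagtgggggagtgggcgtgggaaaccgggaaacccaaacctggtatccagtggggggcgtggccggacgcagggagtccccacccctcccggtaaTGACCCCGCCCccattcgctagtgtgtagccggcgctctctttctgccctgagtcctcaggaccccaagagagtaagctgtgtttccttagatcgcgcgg
Flt1: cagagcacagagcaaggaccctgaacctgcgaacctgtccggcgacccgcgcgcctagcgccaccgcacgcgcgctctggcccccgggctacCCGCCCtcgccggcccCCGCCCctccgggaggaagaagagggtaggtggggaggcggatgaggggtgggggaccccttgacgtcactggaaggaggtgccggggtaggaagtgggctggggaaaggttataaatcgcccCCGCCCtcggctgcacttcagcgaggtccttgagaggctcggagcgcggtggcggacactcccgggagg
The Kdr window held 2 GC boxes, 1 ETS match and 1 antioxidant response element match that overlaps a GC box, and the Flt1 window held 3 GC boxes and no other match. An E-box always contains the hypoxia core. RefSeq gave 10 promoters for 8 of the 10 genes. A GC box stood in 8 of these 10 promoters and in 35.7% of 32851 mouse promoters, an antioxidant response element in 3 and in 12.4%, a GATA match in 2 and in 11.2%, an ETS match in 1 and in 14.9%, and the hypoxia core in 1, at a second Vegfa start site, and in 19.6%. AP-1 and the E-box had no match in the 10 promoters, against 7.81% and 7.15% of all promoters. These matches are letters in a window and were not linked to binding or to the levels.

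None of the 10 genes was called, beside 2.08% of all tested genes (170 rose and 137 fell). At an unadjusted p under 0.05 there were 3, Flt1, Kdr and Pgf, beside 19.2% of all genes. The fold and p limits of the study's methods (at least 2-fold, unadjusted p of at most 0.05) were applied to the limma results. Of the 10 genes 1, Pgf, passed these limits, beside 2.55% of all genes. The authors' own test and fold changes were not used, so whether Pgf meets the study's rule was not tested. The libraries of the groups lay fully apart for 3 genes. Flt1 was the gene with all PBLI libraries higher, where 13.3% of all genes behaved so, and Kdr and Vegfa were those with all PBLI libraries lower, where 14.4% did. The log2 difference was below 0 for 6 genes and above 0 for 4, with a median of -0.10 beside -0.02 over all tested genes. With 10 genes these counts are small, and no shift of the genes as a group is read from them.

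**Figure D1:**
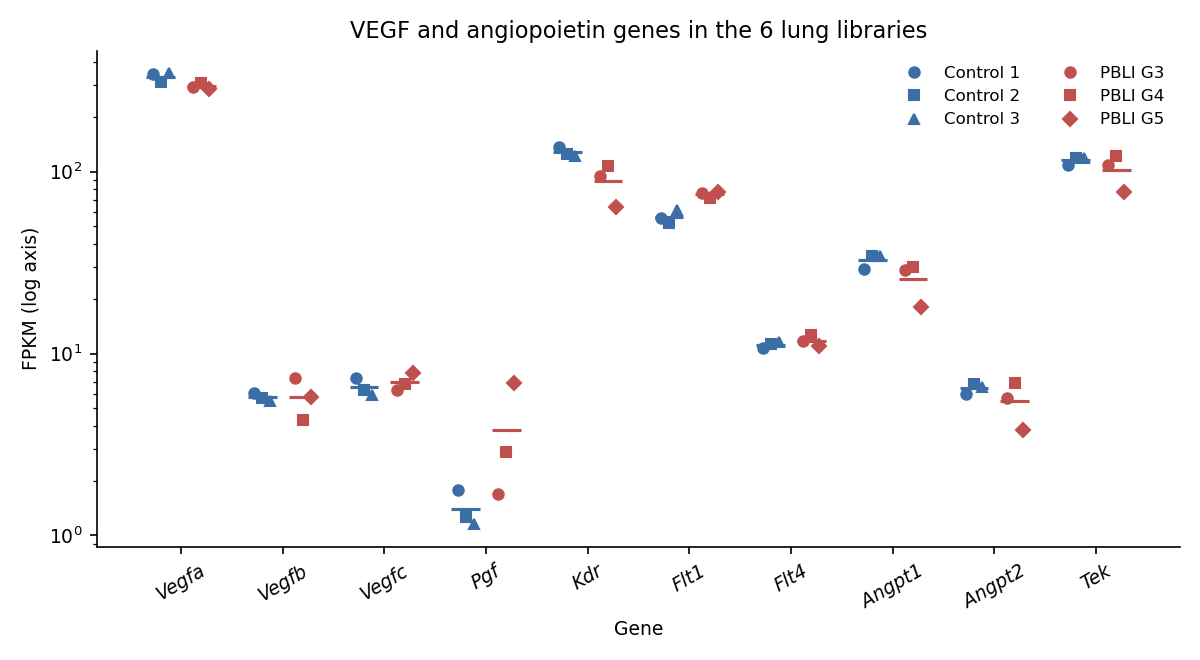
FPKM on a log axis for each of the 10 VEGF and angiopoietin genes, with 1 point per library (blue Control, red PBLI) and a bar at the group mean. Vegfa lies highest at 286 to 347 FPKM, the PBLI points of Flt1 lie above and those of Kdr and Vegfa below all Control points, and the diamond of PBLI G5 stands off for Pgf, Kdr, Tek, Angpt1 and Angpt2.

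Among the ligands, Vegfa (ENSMUSG00000023951, chr17:46016993-46032369, minus strand, mm10) had by far the highest level. It measured 343, 309 and 347 FPKM in Control 1, 2 and 3, against 291, 306 and 286 FPKM in the PBLI pools G3, G4 and G5. Every PBLI library lay below every Control library, though G4 and Control 2 were only a few FPKM apart. The means were 333 ± 20.8 FPKM (SD, n = 3) and 294 ± 10.2 FPKM (SD, n = 3), a log2 difference of -0.18 (SE 0.09, 95% interval -0.38 to 0.03, limma adjusted p = 0.322). The interval thus leaves room for no difference. Without G5 the log2 difference was -0.16.

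Vegfb (ENSMUSG00000024962, chr19:6982473-6987651, minus strand) encodes a ligand of FLT1 known from heart and fat tissue. Its level was 6.05, 5.70 and 5.51 FPKM in Control 1, 2 and 3, against 7.31, 4.32 and 5.76 FPKM in the PBLI pools G3, G4 and G5. The PBLI libraries lay on both sides of the Control libraries, and the log2 difference was -0.02 (SE 0.19, 95% interval -0.47 to 0.44, limma adjusted p = 0.976), with a sign that was not stable between settings (-0.025 without G5).

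Vegfc (ENSMUSG00000031520, chr8:54077606-54187096, plus strand), the lymphatic growth factor, measured 7.33, 6.33 and 5.93 FPKM in Control 1, 2 and 3, against 6.32, 6.81 and 7.80 FPKM in the PBLI pools G3, G4 and G5. The groups overlapped, at a log2 difference of 0.09 (SE 0.15, 95% interval -0.25 to 0.43, limma adjusted p = 0.776). Without G5, its highest library, the log2 difference was 0.01.

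Pgf (ENSMUSG00000004791, chr12:85166635-85177790, minus strand), the placental growth factor gene, was the lowest of the 10 and the most uneven. Its level was 1.77, 1.26 and 1.15 FPKM in Control 1, 2 and 3, against 1.69, 2.88 and 6.85 FPKM in the PBLI pools G3, G4 and G5. Library G5 stood at 4.90 times the Control mean and G4 at 2.06 times, whereas G3 lay within the Control range. The means were 1.40 ± 0.331 and 3.81 ± 2.71 FPKM (SD, n = 3 each), and the log2 difference was 1.01 (SE 0.42, 95% interval 0.04 to 1.99, limma adjusted p = 0.247). Without G5 it was 0.53 (limma adjusted p = 0.343), so the size past 2-fold rested on that library.

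Angpt1 (ENSMUSG00000022309, chr15:42424723-42676977, minus strand) measured 29.1, 34.4 and 34.5 FPKM in Control 1, 2 and 3, against 28.8, 30.04 and 18.01 FPKM in the PBLI pools G3, G4 and G5. Only G5 lay well below the Control range, and G4 lay inside it. The means were 32.7 ± 3.13 and 25.6 ± 6.61 FPKM (SD, n = 3 each), a log2 difference of -0.38 (SE 0.19, 95% interval -0.83 to 0.08, limma adjusted p = 0.335), or -0.14 without G5. Its 5′ end lies opposite the antisense gene Gm17473, and the sources do not say whether counting used the strand.

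Angpt2 (ENSMUSG00000031465, chr8:18690263-18741562, minus strand) lies within the span of Mcph1 on the opposite strand. It measured 5.96, 6.80 and 6.53 FPKM in Control 1, 2 and 3, against 5.72, 6.86 and 3.78 FPKM in the PBLI pools G3, G4 and G5. Library G5 was the lowest of the 6 and G4 the highest, and the log2 difference was -0.25 (SE 0.21, 95% interval -0.75 to 0.24, limma adjusted p = 0.55), or -0.03 without G5. ANGPT2 protein is stored in endothelial granules, and only its RNA was measured.

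Among the receptors, Kdr (ENSMUSG00000062960, chr5:75932827-75978458, minus strand) showed the lowest log2 difference of the 10 genes. It measured 137, 125 and 122 FPKM in Control 1, 2 and 3, against 94.9, 107 and 63.8 FPKM in the PBLI pools G3, G4 and G5. All PBLI libraries lay below all Control libraries, with G5 at 0.498 of the Control mean, G3 at 0.740 and G4 at 0.835. The means were 128 ± 8.001 and 88.6 ± 22.3 FPKM (SD, n = 3 each), a ratio of 0.691. The log2 difference was -0.56 (SE 0.18, 95% interval -0.98 to -0.14, unadjusted p = 0.0158, limma adjusted p = 0.164), short of the threshold. Without G5 it was -0.34 (limma adjusted p = 0.0966), and the remaining PBLI libraries were still below the Control range.

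Flt1 (ENSMUSG00000029648, chr5:147561604-147726011, minus strand) differed in the opposite direction. It measured 55.9, 51.9 and 61.3 FPKM in Control 1, 2 and 3, against 76.2, 72.0 and 77.3 FPKM in the PBLI pools G3, G4 and G5. The PBLI libraries lay close together, at 1.28 to 1.37 times the Control mean, and G5 did not stand off. The means were 56.3 ± 4.74 and 75.2 ± 2.79 FPKM (SD, n = 3 each), a ratio of 1.33. The log2 difference was 0.42 (SE 0.09, 95% interval 0.21 to 0.62, unadjusted p = 0.00199, limma adjusted p = 0.0691), or 0.40 without G5 (limma adjusted p = 0.0731). With sample weights, which count deviating libraries less, its adjusted p was 0.0182, the only call among the 10 genes in 15 alternative settings. Those weights gave more calls over all genes as well, with 644 rising and 529 falling against 170 and 137 in the main fit. The table holds 1 value per gene, so the membrane-bound and soluble forms of Flt1 were not separated.

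Flt4 (ENSMUSG00000020357, chr11:49609263-49652739, plus strand) measured 10.7, 11.2 and 11.6 FPKM in Control 1, 2 and 3, against 11.7, 12.7 and 10.97 FPKM in the PBLI pools G3, G4 and G5. The groups overlapped, and the log2 difference was 0.07 (SE 0.11, 95% interval -0.19 to 0.33, limma adjusted p = 0.764), or 0.12 without G5.

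Tek (ENSMUSG00000006386, chr4:94739289-94874976, plus strand), the angiopoietin receptor, measured 109, 118 and 119 FPKM in Control 1, 2 and 3, against 108, 122 and 76.8 FPKM in the PBLI pools G3, G4 and G5. Libraries G3 and G4 lay at or near the Control range and G5 at 0.664 of the Control mean. The means were 116 ± 5.47 and 103 ± 23.4 FPKM (SD, n = 3 each). The log2 difference was -0.20 (SE 0.16, 95% interval -0.58 to 0.18, limma adjusted p = 0.541), and -0.01 without G5.

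**Figure D2:**
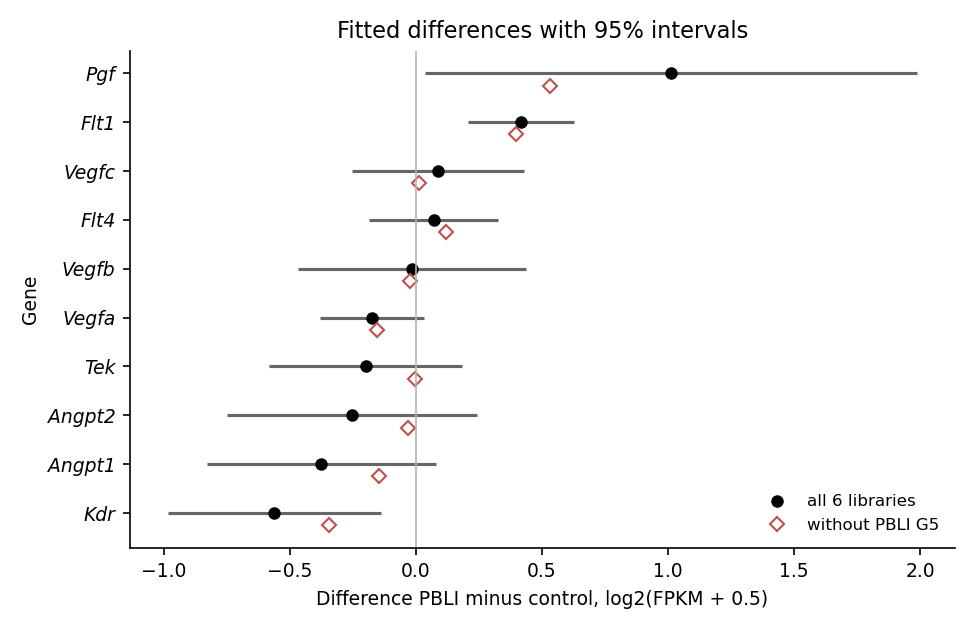
Log2 difference of PBLI minus Control on log2(FPKM + 0.5) for each gene (black point with its 95% interval from limma) and the same without PBLI G5 (open red diamond). The intervals of Flt1, Kdr and Pgf leave out 0, and Pgf, Kdr, Angpt1, Angpt2 and Tek move toward 0 without G5 while Flt1 stays at 0.40.

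The order of levels was compared between the groups. In the Control libraries it was Vegfa, Kdr, Tek, Flt1, Angpt1 and Flt4, each with a range above the next, then Vegfc, Angpt2 and Vegfb, whose ranges overlapped, and Pgf lowest. In the PBLI libraries Vegfa was again highest, but the ranges of Tek, Kdr and Flt1 overlapped, and at the low end so did those of Vegfc, Vegfb, Angpt2 and Pgf. Kdr was above Tek in 3 of 3 Control libraries and below it in 3 of 3 PBLI libraries, and in G5 Flt1 was also above Kdr. Among the 14760 tested genes Vegfa ranked 82, Tek 451, Kdr 456 and Flt1 902 by mean FPKM, while Pgf ranked 11427. The coefficient of variation among Control libraries was at most 11.02% except for Pgf (23.7%). Among PBLI libraries it was 3.47% for Vegfa and 3.71% for Flt1 but 22.8% to 28.5% for Tek, Kdr, Vegfb, Angpt1 and Angpt2 and 71.1% for Pgf. Library G5 was the lowest PBLI library for 6 of the 10 genes and the highest for 3.

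Ratios within a library, which do not depend on how libraries were scaled, were compared for 6 pairs by two-sided exact permutation tests. With 3 libraries against 3 such a test cannot give a p below 0.1. The Flt1 over Kdr ratio was 0.407, 0.414 and 0.503 in Control 1, 2 and 3, against 0.803, 0.673 and 1.21 in the PBLI pools G3, G4 and G5. Every PBLI library was above every Control library, and the mean went from 0.441 ± 0.0535 to 0.895 ± 0.281 (SD, n = 3 each; log2 difference 0.98, exact p = 0.1, 0.2 adjusted over the 6 ratios). Without G5 the log2 difference was 0.74, with the groups still apart. The Vegfa over Kdr ratio was 2.499, 2.46 and 2.85 in Control 1, 2 and 3, against 3.07, 2.86 and 4.48 in the PBLI pools G3, G4 and G5, at a log2 difference of 0.39 (exact p = 0.1, adjusted 0.2), or 0.19 without G5. Its groups were apart by a narrow margin, between G4 and Control 3.

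The balance of the angiopoietins did not lie apart. Angpt2 over Angpt1 was 0.205, 0.198 and 0.189 in Control 1, 2 and 3, against 0.199, 0.228 and 0.210 in the PBLI pools G3, G4 and G5, a log2 difference of 0.10 (exact p = 0.2, adjusted 0.3). The ratio in G5 was close to the other libraries although both genes were at their lowest there. Tek over Tie1, its partner receptor, was 2.44, 2.46 and 3.10 in Control 1, 2 and 3, against 3.05, 3.20 and 2.89 in the PBLI pools G3, G4 and G5 (log2 difference 0.20, exact p = 0.3, adjusted 0.36).

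**Figure D3:**
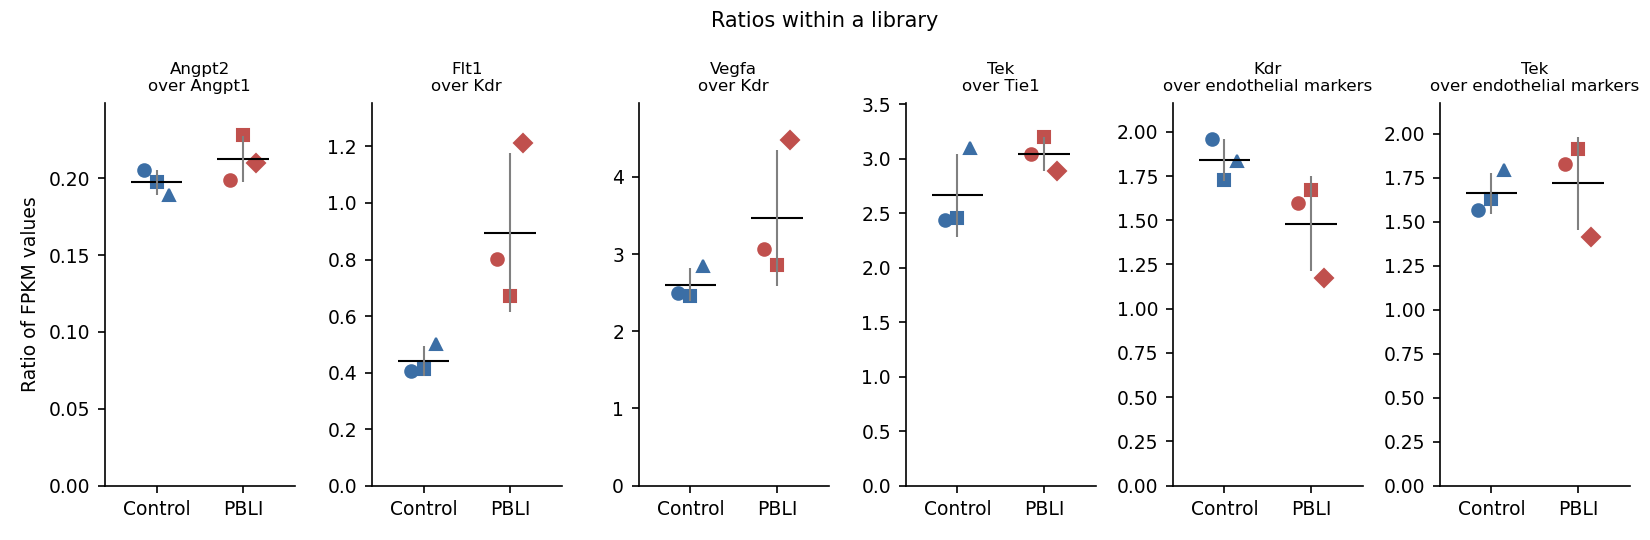
Ratios of FPKM values within each library, each panel with its own axis from 0, points for libraries (blue Control, red PBLI, diamond PBLI G5), a bar at the mean and a line for 1 SD. The PBLI points of Flt1 over Kdr (0.673 to 1.21) lie above the Control points (0.407 to 0.503), and those of Angpt2 over Angpt1 overlap.

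Kdr, Tek, Flt1 and Flt4 are mostly made by endothelial cells, so endothelial markers were set beside them. In unsorted tissue, fewer endothelial cells and less RNA per cell cannot be told apart. The geometric mean of 20 pan-endothelial markers was 70.0, 72.7 and 66.6 FPKM in Control 1, 2 and 3, against 59.4, 64.1 and 54.3 FPKM in the PBLI pools G3, G4 and G5. The PBLI libraries were thus at 0.851, 0.919 and 0.779 of the Control mean, with G5 lowest, in the same order as for Kdr and Tek. Of the 20 markers, 10 had all PBLI libraries lower and 1 higher, beside 14.4% and 13.3% of all tested genes. The median log2 difference was -0.15, and, where 2.08% of all tested genes were called, 2 markers fell. These were Emcn, a sialomucin of capillary and venous endothelium (log2 difference -1.16, limma adjusted p = 0.0162), and Mmrn2, an endothelial matrix protein (-0.73, adjusted p = 0.0339). The defining markers Pecam1 and Cdh5 were high in every library, but both had all PBLI libraries lower and neither was called. Pecam1 was at 270 to 298 FPKM in the Control and 255 to 260 FPKM in the PBLI libraries (limma adjusted p = 0.393). Cdh5 was at 265 to 289 FPKM and 233 to 245 FPKM (adjusted p = 0.202). None of the 20 was called without Control 1, without Control 2 or without G3. Over all genes those fits also had few calls, with 48, 5 and 15 rising and 12, 0 and 3 falling.

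Set over this endothelial mean, Kdr was 1.96, 1.73 and 1.83 in Control 1, 2 and 3, against 1.599, 1.67 and 1.18 in the PBLI pools G3, G4 and G5. The groups did not overlap, though by a small margin between G4 and Control 2, and the log2 difference was -0.33 (exact p = 0.1, adjusted 0.2), or -0.17 without G5. Tek over the same mean was 1.56, 1.63 and 1.79 in Control 1, 2 and 3, against 1.83, 1.91 and 1.41 in the PBLI pools G3, G4 and G5 (log2 difference 0.04, exact p = 0.8). Without G5 the log2 difference was 0.17, and the ratios of G3 and G4 were both above those of all Control libraries. Flt1 was higher in every PBLI library while the endothelial geometric mean was lower in every PBLI library. The summed level of the same markers, which the highest genes dominate, did not lie apart. It was 2725, 2885 and 2667 FPKM in Control 1, 2 and 3, against 2707, 2876 and 2368 FPKM in the PBLI pools G3, G4 and G5. The part of the endothelial markers in the differences of Kdr and Tek was not tested beyond these ratios.

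**Figure D4:**
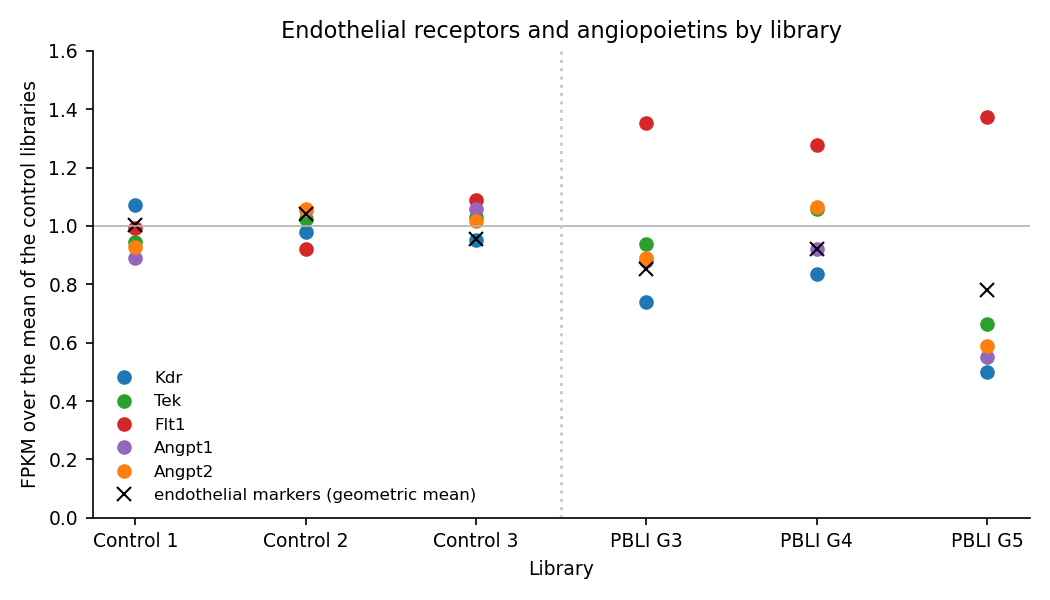
FPKM of Kdr, Tek, Flt1, Angpt1 and Angpt2 divided by the mean of the Control libraries, by library, with the geometric mean of the pan-endothelial markers as crosses. In PBLI G5, Flt1 is at 1.37 while Kdr (0.498), Angpt1 (0.552), Angpt2 (0.588) and Tek (0.664) are below the endothelial mean (0.779).

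Markers of endothelial subtypes were counted next. The calls of the main fit in these and all later gene lists stand beside 2.08% of all tested genes. Other fits had other counts over all genes. Without G5 311 rose and 188 fell, without G4 69 and 46, and without G3 15 and 3. Without Control 1, 2 and 3 in turn, 48, 5 and 69 rose and 12, 0 and 42 fell. With no filter 106 rose and 68 fell, and without the trend 70 and 59. In the fits with few calls, a list without any is not a result about its genes. Of 10 general capillary markers, Lpl, which encodes lipoprotein lipase, rose (log2 difference 0.99, limma adjusted p = 0.0379) and the chemokine gene Cxcl12, also on the artery and vein list, fell (-1.07, adjusted p = 0.00607), with a list median of -0.14, or -0.03 without G5. Of 9 markers of aerocytes, the gas exchange capillary cells, none was called at a median of -0.0095, or -0.016 without G5, and the smallest p values belonged to Apln (-0.46, adjusted p = 0.167) and Prx (0.26, adjusted p = 0.246). Of 12 artery and vein markers, Slc6a2, a noradrenaline transporter, rose (1.02, adjusted p = 0.0144) and Cxcl12 fell, at a median of -0.19, or 0.01 without G5. Of 9 lymphatic markers, Fgl2 rose (0.82, adjusted p = 0.0324), a gene that macrophages also express, at a median of 0.04, or 0.0042 without G5. Differences between these lists were not tested. Without Control 2, where only 5 genes rose and 0 fell over all genes, no marker of these 4 lists was called. A lymphatic marker was called in the fits on 5 libraries only where G5 was left out.

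Other cell types that make or receive these factors were also measured. Of 12 fibroblast markers, 3 fell, the transcription factor gene Tcf21 (-0.96, limma adjusted p = 0.0163) and the collagen genes Col1a2 (-0.85, adjusted p = 0.0283) and Col3a1 (-1.08, adjusted p = 0.0379), with a median of -0.63. Without Control 2, G3 or G4 none of the 12 was called, 1 was called without Control 1, and 5 were called without G5. Of 13 pericyte and smooth muscle markers, cells that are a source of Angpt1, none was called (median -0.27), with the smallest p values for Postn (-0.36, adjusted p = 0.102) and Trpc6 (-0.30, adjusted p = 0.142). Of 12 alveolar type 2 markers, Sftpd, a surfactant protein gene, rose (0.62, adjusted p = 0.0411; median 0.22). Of 12 alveolar type 1 markers, cells known to make VEGFA, none was called (median 0.02, or -0.0034 without G5), with the smallest p values for Hopx (0.36, adjusted p = 0.141) and Cav1 (0.34, adjusted p = 0.172). The summed type 1 level was 2228 to 2548 FPKM in the Control and 2495 to 2872 FPKM in the PBLI libraries, while Vegfa was lower in every PBLI library.

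Of 12 neutrophil markers, Mmp8 (3.09, limma adjusted p = 0.0418) and Il1r2 (2.88, adjusted p = 0.0166) rose, with a median of 1.85, and 8 were called without G5. Of 11 lymphocyte markers, Ncr1 of natural killer cells fell (-1.40, adjusted p = 0.029), with a median of -0.74. No marker was called among 8 of alveolar macrophages (median 0.13), 8 of airway epithelium (-0.34), 11 of erythroid cells and platelets (-0.48) and 12 of cycling cells (-1.03, or -0.33 without Control 1). In this order the smallest p values in each were those of Itgax (-0.33, adjusted p = 0.182) and Fabp4 (1.23, adjusted p = 0.184), Cyp2f2 (-0.84, adjusted p = 0.0705) and Scgb3a2 (-0.87, adjusted p = 0.153), Ppbp (-0.88, adjusted p = 0.114) and Gp9 (-0.91, adjusted p = 0.115), and Birc5 (-1.602, adjusted p = 0.172) and Cdk1 (-1.25, adjusted p = 0.234). With 1 library left out, the type 2, neutrophil and lymphocyte lists had calls only without G5, where they numbered 2, 8 and 2. Library G5, with a neutrophil sum near the Control libraries, also had the lowest Kdr, Tek, Angpt1 and Angpt2 levels, and the part of that library's makeup in them was not tested.

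The partners of these ligands and receptors were counted in the same fit. Of 18 tested partners, co-receptors and competing ligands, 1 rose and 2 fell, at a median of -0.10. Figf, the older symbol of Vegfd and a ligand of FLT4, measured 25.7, 23.0 and 23.2 FPKM in Control 1, 2 and 3, against 15.3, 17.5 and 15.9 FPKM in the PBLI pools G3, G4 and G5, a log2 difference of -0.55 (SE 0.10, limma adjusted p = 0.0425). Plxnd1, the endothelial receptor of semaphorin 3E, went from 25.3, 23.3 and 19.8 FPKM to 12.3, 12.8 and 9.18 FPKM (-0.97, SE 0.16, adjusted p = 0.03). Sema3f, a neuropilin ligand that opposes VEGF, went from 21.4, 22.1 and 20.6 FPKM to 32.6, 31.6 and 33.4 FPKM (0.60, SE 0.08, adjusted p = 0.0197). In all 3 genes the groups lay apart, and all 3 were called without G5. With any 1 of the other 5 libraries left out, or without the trend, none of the 18 was called, and with no filter 1 was.

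Of 30 genes of VEGF receptor signalling, 1 rose, Hspb1, a small heat shock protein on the kinase path to actin and also a general stress gene. It measured 14.2, 26.2 and 22.8 FPKM in Control 1, 2 and 3, against 80.0, 60.4 and 94.1 FPKM in the PBLI pools G3, G4 and G5 (1.89, SE 0.24, limma adjusted p = 0.0163). The other 29 were not called, the list median was -0.01, or -0.04 without G5, and Hspb1 itself was not called without Control 2 or without G3. Of 20 genes that VEGF induces in endothelial cells, which include Angpt2, none was called, at a median of -0.35. The smallest p values were those of the nuclear receptor genes Nr4a1 (-1.09, limma adjusted p = 0.057) and Nr4a2 (-0.76, adjusted p = 0.0647), and both had all PBLI libraries lower. In all, 5 genes of the list had all PBLI libraries lower and 2 higher, beside 14.4% and 13.3% of all genes. The 2 were F3 (2.00, adjusted p = 0.23) and Plaur (1.24, adjusted p = 0.146), at 0.95 and 0.77 without G5. Without G5, 2 genes of this list were called, and its median was -0.17.

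Of 19 tested regulators of Vegfa, Nfe2l2, which encodes the oxidative stress factor NRF2, rose from 65.4, 63.4 and 71.2 FPKM to 110, 93.6 and 100.1 FPKM (0.60, SE 0.09, limma adjusted p = 0.0281), and the median was 0.13. Of 13 angiogenesis inhibitors, Timp3, a metalloproteinase inhibitor that also blocks VEGF binding to KDR, rose from 254, 266 and 362 FPKM to 484, 466 and 537 FPKM (0.77, SE 0.15, adjusted p = 0.0487), at a list median of -0.01, or -0.14 without G5. Nfe2l2 and Timp3 had all PBLI libraries above all Control libraries. Without G5, 3 regulators were called, Nfe2l2, Atf4 (0.57, adjusted p = 0.0411) and Stat3 (0.56, adjusted p = 0.0384), and none was called without any 1 of the other 5 libraries or without the trend. The call of Timp3 was lost with a pseudocount of 1, with either other scaling, with no filter, without the trend and without any 1 library other than Control 3. Of 20 genes that handle VEGF in the matrix or on heparan sulfate, none was called (median -0.04, or -0.09 without G5), with the smallest p values for Mmp2 (-0.72, adjusted p = 0.0731) and Pcsk5 (-0.74, adjusted p = 0.082). Without G5, Mmp9, which is also a neutrophil gene, was called (2.46, adjusted p = 0.0124).

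**Figure D5:**
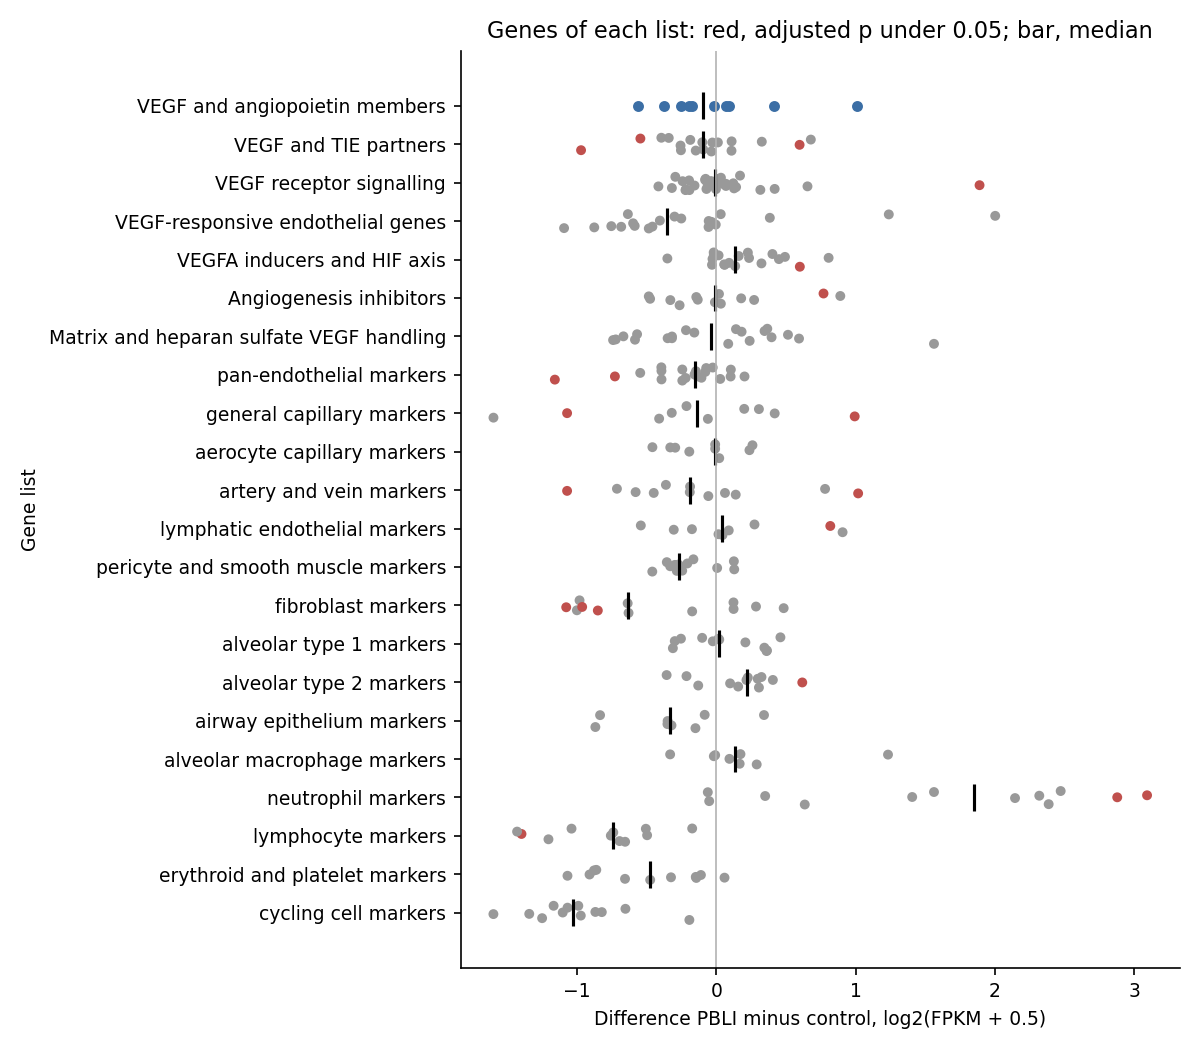
Log2 difference of PBLI minus Control for each tested gene of each list, 1 point per gene, with a bar at the list median. The 10 VEGF and angiopoietin genes (blue, top row) have no call, red points are genes with an adjusted p under 0.05, and the neutrophil list has the highest median (1.85).

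The genes whose levels followed Flt1 and Kdr most closely over the 6 libraries were found among 13078 genes with a mean of at least 1 FPKM. For Flt1 they were Flot1 (Pearson r = 0.998), Trip11 (0.995), Mkrn2 (0.994), Taf1d (0.994) and Rps6 (0.994). For Kdr they were Rtn4rl1 (0.999), Msh5 (0.998), Cep68 (0.997), Oxr1 (0.996) and Mmd (0.996). With 6 points per gene, 2 groups and 13078 candidates, values this high are a description and carry no test, and the points share libraries and depth.

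Other RNA of these loci was sparse. Of 3696 circRNAs, closed RNA rings detected by reads across their junction, 2 came from the 10 genes. An exonic circRNA of Angpt1 (chr15:42496227-42512405, minus strand, mm10) had 2 junction reads in Control 1, and a sense overlapping circRNA of Vegfa (chr17:46017994-46018191, minus strand) had 2 in Control 3, with 0 reads in every PBLI library. The libraries held 2513 to 4733 junction reads each, so 2 reads cannot show a difference, and such counts cover counting error only. Among lncRNA transcripts, where 0.0295% of 6772 tested were called, AK131850, antisense to Vegfa, measured 0.195, 0.882 and 0.508 FPKM in Control 1, 2 and 3, against 0.224, 0.792 and 0.613 FPKM in the PBLI pools G3, G4 and G5 (log2 difference 0.03, limma adjusted p = 0.976), or -0.03 without G5. Gm17473, antisense to Angpt1, measured 0.254, 1.02 and 1.59 FPKM and 1.20, 1.15 and 0.762 FPKM (0.19, adjusted p = 0.874; transcript ENSMUST00000180585), or 0.32 without G5. Both overlapped between the groups, as their sense genes did in the case of Angpt1 but not of Vegfa.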

How the data were processed

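RNA from pieces of the right upper lung lobe of 3 Control and 3 PBLI libraries was depleted of ribosomal RNA, prepared with a stranded kit and sequenced as paired ends. Per the methods of the study, the authors trimmed reads with cutadapt 1.9.3, aligned them to mm10 with hisat2 2.0.4 and made FPKM values per gene with cuffdiff 2.2.1 on Ensembl genes. The deposited FPKM values of the mRNA and lncRNA tables were used as they stand. The deposited circRNA counts are junction reads that the authors found with STAR 2.5.1b and DCC 0.4.4. The sources do not say whether counting used the strand. In all, 18 per-sample columns were not used, namely count columns scaled to nearly equal totals and log CPM values, and the authors' own fold changes and p-values were not used either. The headers of the PBLI columns give the group but no replicate number.

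Groups followed the labels. The comparison was made with limma 3.58.1 (R 4.3.3) with a mean-variance trend on log2(FPKM + 0.5), over genes that reached 0.5 FPKM in any library, with Benjamini-Hochberg adjustment over all genes tested. The authors' test needs reads, so a test on a log scale was used. Exact permutation tests of within-library ratios used scipy 1.17.1. The code was tested on simulated data. Read totals are unknown; relative depth came from the steps between low FPKM values. Each library pools 2 mice and nothing else is stated of cultures or litters, so p-values measure the spread between pools. Gene positions are from GENCODE on GRCm38. lncRNAs were matched by the table's associated-gene entry.

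The genes and lists were chosen with earlier results of these data known. Named were all 10 genes, from each list up to 4 called genes or otherwise the 2 with the smallest p, and the 5 genes most correlated with the 2 genes of smallest p. Pecam1, Cdh5 and Tie1 were named besides, as defining markers or as part of a ratio. Atf4, Stat3, Mmp9, F3 and Plaur were named after their values were seen. Alternatives changed the pseudocount, filter, scaling, trend, weights and libraries.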

Additional observations from a re-analysis of the deposited data

How the results depend on the processing

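No paired analysis was possible because the PBLI columns carry no replicate numbers, so the replicate block was not run. Over 15 alternatives for each of the 10 genes (150 values), 145 kept their direction and side of the threshold, 4 reversed (all Vegfb) and 1 was newly called (Flt1 with sample weights, adjusted p = 0.0182, so 1 gene called). Kdr ranged from -0.71 to -0.29 (limma adjusted p 0.0712 to 0.361) and Flt1 from 0.36 to 0.48 (0.0182 to 0.257). Vegfb was 0.082 with weights and 0.0093 without Control 1 and G5, and from -0.18 to 0.16 with 1 library left out. Over all genes, 106 rose and 68 fell with no filter, 70 and 59 without trend, and 644 and 529 with weights. With 1 library left out, 5 to 311 rose and 0 to 188 fell, with 5 and 0 without Control 2. Without Control 1 and G5, chosen after seeing the data, 274 rose and 141 fell. Tek over the endothelial mean was -0.14 with an arithmetic mean (also chosen after seeing the data), and -0.046 to 0.17 with 1 library left out. AK131850 was -0.065 with weights, -0.29 without Control 1 and G5, and -0.22 to 0.28 with 1 library left out. Gm17473 (ENSMUST00000180585) was -0.090 without Control 1 and G5 and -0.23 to 0.51 with 1 library left out. Among the lists, the lymphatic and alveolar type 2 lists had no call with no filter or without the trend, and the lymphocyte list none with no filter. The cause of these shifts was not tested. For low genes such as Pgf and the lncRNAs, the part of depth was not tested, and depth in reads is unknown.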
